A study of Mus musculus with 24 samples.

Results

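The genes described here are 35 markers of macrophages and other myeloid cells, chosen by symbol, in mammary glands of ovariectomized mice given progesterone or oil. Each gene was read from the probe set with the highest mean log2 intensity among those annotated to 1 gene symbol. Such a probe set was found for 34 of the 35. Lilrb4a, an inhibitory immunoglobulin-like receptor, is read by a probe set that it shares with a second gene, and no value is given for it. Of the 34, 32 lay above the median of their array on all 24 arrays and were tested, among 12352 genes tested in all and 18193 measured. The 2 others lay above the array median on fewer than 3 arrays and were not tested. Trem2, a lipid-sensing receptor of macrophages, ranged over the arrays between 13.1 and 48.3 intensity units and never passed the array median. Itgam, the integrin chain of the complement receptor on monocytes and granulocytes, ranged between 31.2 and 91.0 and passed it on 2 arrays.

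Nulliparous BALB/c females had their ovaries removed at 6 weeks of age and were rested for 2 weeks, so that both arms lacked ovarian hormones. The P4 groups were then injected daily under the skin with 1 mg of progesterone dissolved in 100 µl of sesame oil, and the oil groups received the same volume of oil alone. Glands were taken 4, 16, 28 or 76 h after the first injection, with 3 arrays in each of the 8 groups, and every array carried RNA pooled from 5 mice. Array medians lay between 62.8 and 70.2 intensity units, and pairs of arrays of 1 group correlated across genes with r between 0.966 and 0.993. How many injections a gland had seen and how long it had been treated cannot be told apart. Since whole glands were measured, fewer cells of a type and less RNA per cell cannot be told apart in any result below.

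Macrophages of the mammary gland lie along the ducts and in the fat pad. Their survival depends on the growth factor Csf1, which acts through the receptor Csf1r, and their gene programme on the transcription factor PU.1, encoded by Spi1. Tissue-resident macrophages typically carry the mannose receptor Mrc1, the haemoglobin scavenger Cd163, the folate receptor Folr2 and the lectin Clec10a, and they make the C1q subunits that start the classical complement pathway. Other members, such as Ptprc (the leukocyte phosphatase the common leukocyte antigen), the integrin chain Itgb2 and the oxidase subunits Cybb and Ncf1, are shared with granulocytes, monocytes, dendritic cells or all leukocytes.

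Promoters of 26 of the 35 genes were found in the RefSeq table of the GRCm38.p6 build, each running over 300 bases about the gene's start. The hexamer GAGGAA, the core that PU.1 binds, stood on one strand or the other in 17 of the 26, or 65.4%, against 28.3% of 27025 promoters. TGTTCT, a half-site of the steroid receptors that include the progesterone receptor, stood in 11 of the 26 (42.3%), against 19.0% of all promoters, and TGCTGA, a half-site of MAF factors, in 7 (26.9%), against 19.2%. These are matches of letters only, both strands were searched for each motif, and matches of TGCTGA and GAGGAA can overlap. In a test of whether the progesterone difference varied with time, described further on, 4 of 32 members passed, against 10% of all genes. The promoters of these 4 are given below. They lie at chr2:14229164-14229463 on the plus strand for Mrc1, chr1:171059354-171059653 on the minus strand for Fcgr3, chr4:136892865-136893164 on the minus strand for C1qc and chr7:101857141-101857440 on the minus strand for Folr2. They run 5′ to 3′ along the gene, capitals mark GAGGAA or its reverse complement, and the sequence is that of the reference strain, not of BALB/c.
Mrc1: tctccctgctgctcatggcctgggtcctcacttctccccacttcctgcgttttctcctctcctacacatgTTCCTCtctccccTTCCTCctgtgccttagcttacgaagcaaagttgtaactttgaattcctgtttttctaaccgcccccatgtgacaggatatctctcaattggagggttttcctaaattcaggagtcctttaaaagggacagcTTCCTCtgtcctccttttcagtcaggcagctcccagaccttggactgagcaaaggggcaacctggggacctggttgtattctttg
Fcgr3: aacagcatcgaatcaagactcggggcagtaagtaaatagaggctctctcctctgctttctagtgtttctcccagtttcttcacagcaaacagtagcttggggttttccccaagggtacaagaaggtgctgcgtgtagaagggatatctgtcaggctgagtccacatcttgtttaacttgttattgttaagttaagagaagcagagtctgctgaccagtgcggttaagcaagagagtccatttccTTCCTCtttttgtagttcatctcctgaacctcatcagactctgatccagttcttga
C1qc: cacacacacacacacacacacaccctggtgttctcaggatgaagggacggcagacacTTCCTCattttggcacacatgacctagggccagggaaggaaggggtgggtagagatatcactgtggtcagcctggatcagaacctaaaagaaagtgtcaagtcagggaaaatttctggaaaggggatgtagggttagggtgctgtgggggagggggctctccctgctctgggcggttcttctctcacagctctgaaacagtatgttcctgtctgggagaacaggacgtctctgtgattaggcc
Folr2: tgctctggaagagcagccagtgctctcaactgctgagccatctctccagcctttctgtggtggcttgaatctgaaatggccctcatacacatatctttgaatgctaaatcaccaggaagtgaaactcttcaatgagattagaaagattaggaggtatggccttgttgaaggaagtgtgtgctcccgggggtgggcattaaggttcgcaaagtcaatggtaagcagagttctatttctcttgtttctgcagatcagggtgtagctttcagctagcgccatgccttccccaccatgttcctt
The Mrc1 window holds 3 such boxes, the Fcgr3 and C1qc windows 1 each, and the Folr2 window none. TGTTCT occurs in C1qc, at 2 places, and in none of the other windows printed.

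Against their own oil arrays, glands taken 28 h after the start of progesterone had higher Folr2, Mrc1, Fcgr3 and Csf1. All of these except Csf1 are surface receptors of macrophages, and Csf1 is their growth factor. No member was lower by the same test, against 0.591% of all genes. Set against the oil arrays of 4, 16 and 76 h, the same 28 h oil arrays were lower for 16 of 32 members. That compares with 6.1% of all genes. No member was called between P4 glands of 28 h and those other oil arrays, against 0.874% of all genes. In that comparison 17 members had an unadjusted limma p under 0.05, against 13.2% of all genes. These 3 comparisons share arrays, so that their values are given side by side.

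Folr2, the folate receptor beta of resident macrophages, showed the largest of these differences. Its intensity was 366, 301 and 435 on the P4 arrays at 28 h, against 109, 137 and 229 on the oil arrays at 28 h. On the 9 oil arrays of the other times it ranged between 391 and 662, with a median of 503. All P4 arrays lay above all oil arrays of 28 h, and the oil arrays of 28 h lay below every other oil array. The log2 difference from own oil was 1.27 ± 0.22 (SE), or 2.41-fold (limma, adjusted p = 0.00127). Against oil of the other times the P4 difference was -0.53 ± 0.18 (adjusted p = 0.190), while that of oil at 28 h was -1.80 ± 0.18 (adjusted p = 4.16e-07), or 3.47-fold lower. The Folr2 call at 28 h held whichever array was left out.

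Mrc1, the mannose receptor, had 1294, 1107 and 1251 units on the P4 arrays at 28 h, against 561, 698 and 1021 on the oil arrays. The ranges did not overlap, and the third oil array lay nearest to the P4 arrays. On the oil arrays of the other times Mrc1 ranged between 1267 and 1777 (median 1504). The difference from own oil was 0.72 ± 0.15 (1.65-fold, limma adjusted p = 0.00542). It was -0.28 ± 0.12 for P4 against oil of the other times (adjusted p = 0.315) and -1.003 ± 0.12 for oil at 28 h against them (adjusted p = 5.22e-06). Without the first oil array of 28 h the adjusted p of the difference from own oil was 0.0518.

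Fcgr3, a low-affinity activating receptor for IgG, had 782, 733 and 810 units on the P4 arrays at 28 h, against 494, 587 and 692 on the oil arrays. Again every P4 array lay above every oil array of that time. The difference was 0.40 ± 0.10 (1.32-fold, limma adjusted p = 0.0215), and it was lost in 4 of 24 fits that left out 1 array, namely oil 28 h replicates 1 and 2 and P4 28 h replicates 1 and 3. Against oil of the other times, Fcgr3 stood at -0.30 ± 0.08 in P4 glands (adjusted p = 0.0771) and at -0.70 ± 0.08 in oil glands of 28 h (adjusted p = 2.34e-06).

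Csf1, the growth factor, had 415, 411 and 400 units on the P4 arrays at 28 h and 284, 322 and 317 on the oil arrays. The difference was 0.41 ± 0.11 (1.33-fold, limma adjusted p = 0.0396). It was the least stable of the 4, since 11 of 24 fits without 1 array lost it and the mean of its 4 probe sets gave an adjusted p of 0.328. The other 3 probe sets of Csf1 differed by 0.04 to 0.43 at 28 h. In a limma fit to all 34945 probe sets of 1 symbol, none of the 4 passed. Csf1, by the probe set used above, had an adjusted p of 0.0665 in that fit. Its receptor Csf1r had 3148, 3081 and 3284 units on the P4 arrays and 2720, 2820 and 3164 on the oil arrays, which overlap, and its difference from own oil was 0.13 ± 0.06 (adjusted p = 0.390). In oil glands of 28 h the log2 difference of Csf1r from oil of the other times was -0.31 ± 0.05 (adjusted p = 0.000205), and both of its other probe sets were lower too.

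**Figure D1:**
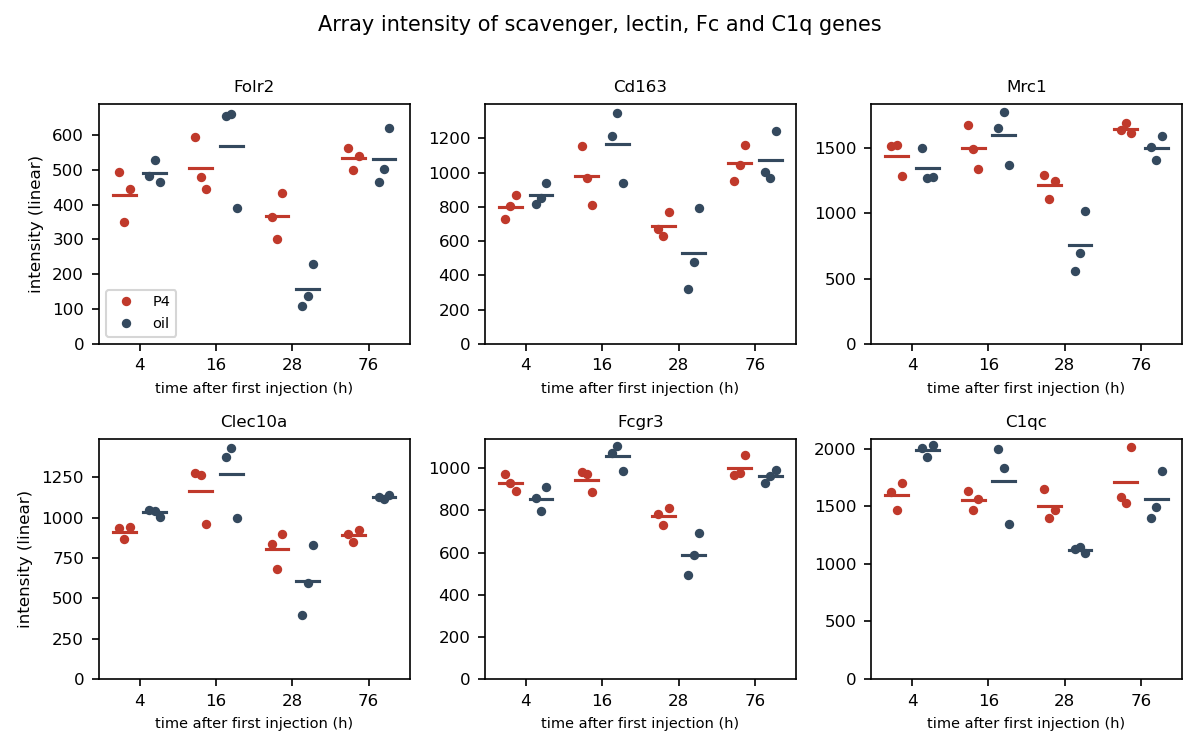
Array intensity, linear, of Folr2, Cd163, Mrc1, Clec10a, Fcgr3 and C1qc by hours after the first injection, with P4 arrays left of oil arrays; points are the 3 arrays of a group and bars their mean. At 28 h the oil arrays of Folr2 lie at 109, 137 and 229, below all other arrays of the gene, and the third oil array of 28 h is the highest of its group in 5 of the 6 panels, C1qc being the exception.

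The 4 called members of 32 compare with 2.53% of all genes called in this comparison, and with 1.94% called higher. The median difference of the 32 was 0.13, against 0.00 for all genes tested, and 14 of them had an unadjusted p under 0.05, against 12.4% of all genes. Without oil 28 h replicate 3 the median of the 32 was 0.22. With limma fitted to the 6 arrays of 28 h alone, only Folr2 was called, and without the first oil array of 28 h the count was likewise 1. The arrays did not overlap for 8 members that were higher with progesterone (6.8% of all genes) and for 4 that were lower (5.24%). Beyond the called genes the higher ones were Fcer1g, C1qa, C1qc and Cd14, and the lower ones were Itgb2, Ncf1, Ptprc and Laptm5. None of the lower ones passed the test. For Ptprc the intensities were 4608, 5340 and 5439 with P4 and 6018, 5805 and 6244 with oil, a difference of -0.23 ± 0.07 (adjusted p = 0.0835).

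By role, the Fc receptors and their signalling partners came out at a median of 0.22 with 1 of 5 tested members called. The activating receptor Fcgr1 stood at 0.27 and the inhibitory receptor Fcgr2b at 0.10. The adaptors Fcer1g and Tyrobp, which carry the ITAM signalling motif, stood at 0.22 and 0.11. All 3 C1q subunits had positive differences, of 0.25 for C1qa, 0.31 for C1qb and 0.42 for C1qc, without a call (adjusted p of C1qc = 0.0708). Of the 10 scavenger, lectin and pattern receptors, 8 had positive differences and 2 were called, with a median of 0.40. Cd163 stood at 0.47 ± 0.21, Clec10a at 0.47 ± 0.18 and Cd14, the endotoxin co-receptor, at 0.47 ± 0.15, while Marco, a scavenger receptor for bacteria, stood at -0.22 and the beta-glucan receptor Clec7a at 0.00 without a call. The 5 oxidase, lysosome and killing genes were all negative, at a median of -0.16, and none passed. In this group Cybb had -0.27, Ncf1 -0.23, the pore former Mpeg1 -0.16, the protease Ctss -0.11 and lysozyme, Lyz2, -0.01.

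Relative to the oil arrays of 4, 16 and 76 h, oil glands of 28 h were lower in all 3 C1q genes, 4 of 5 Fc receptor and signalling genes, 6 of 10 scavenger, lectin and pattern receptors, 2 of 3 CSF1 axis genes and 1 of 4 leukocyte membrane and cytoplasm genes. No integrin, oxidase, lysosome or killing gene was called. Of 32 members, 16 were lower and none was higher by limma, against 6.1% of all genes lower, 1.5% higher and 7.6% called in all. The median of the 32 was -0.31, against -0.03 for all genes. The 3 oil arrays lay below all 9 other oil arrays for 11 members, against 5.7% of all genes.

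All 3 C1q genes were lower in oil glands of 28 h. C1qc had 1125, 1150 and 1096 units on those arrays, against 1347 to 2036 (median 1829) on the 9 other oil arrays. The 3 arrays of 28 h lay close together, and the difference was -0.63 ± 0.10 (adjusted p = 0.000159). C1qb followed at -0.53 and C1qa at -0.38. P4 glands of 28 h had 1654, 1402 and 1465 units of C1qc, above the oil arrays of 28 h and within the range of the other oil arrays, and differed from oil of the other times by -0.21 ± 0.10 (adjusted p = 0.368).

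Among the scavenger and lectin receptors 6 of 10 were lower in oil glands of 28 h. Cd163 had 321, 480 and 793 units there, against 815 to 1349 (median 971) on the other oil arrays, a difference of -1.04 ± 0.17 (adjusted p = 0.000209). Clec10a had 394, 592 and 833 units, against 995 to 1434 (median 1115), a difference of -0.97 ± 0.14 (adjusted p = 8.43e-05). For both genes the third array of 28 h came closest to the other oil arrays without reaching them. The lysosomal glycoprotein Cd68 was lower by a log2 difference of -0.55, the scavenger receptor Stab1 by -0.35. The Stab1 call was lost in 14 of 24 fits without 1 array (highest adjusted p = 0.285). P4 glands of 28 h stood at -0.57 for Cd163 and -0.50 for Clec10a against the same oil arrays, where their 3 arrays also lay below all 9, but neither passed the test (adjusted p = 0.122 and 0.114). Fcgr2b was the third member whose P4 arrays all lay below them. Msr1, the macrophage scavenger receptor A, was the only member whose P4 arrays at 28 h lay above all of them, at 0.54 ± 0.16 (adjusted p = 0.125), and none of its 3 other probe sets was called, 2 of which gave -0.05 and -0.18 while the last, at -0.34, lay under the median of every array. For this comparison of P4 with other oil, 0.874% of all genes were called, 1.3% did not overlap and were lower, and 1.03% did not overlap and were higher. Although no member was called by limma, 17 had an unadjusted p under 0.05, against 13.2% of all genes, and the median of the 32 was -0.21, against -0.04 for all genes.

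Of the Fc receptor group, Fcgr3, Fcer1g (-0.50), Fcgr2b (-0.45) and Tyrobp (-0.39) were lower in oil glands of 28 h, and Fcgr1, at -0.16, was not called. Csf1 was lower at -0.31 ± 0.09 (adjusted p = 0.0297), a call lost in 7 of 24 fits without 1 array, and its 3 other probe sets, at -0.23 to 0.07, were not called. Spi1, the master regulator, stood at 0.03. Ms4a7, a membrane protein of mature macrophages, was lower at -0.66 ± 0.13 (adjusted p = 0.00139). No call was made for Ptprc (0.13), Laptm5 (0.13), a lysosomal protein of leukocytes, Itgb2 (0.13), Itgax (0.04), Ncf1 (0.06), Mpeg1 (-0.05), Ctss (-0.06), Lyz2 (-0.13), Aif1 (-0.16), a calcium-binding protein of macrophages, or Cybb (0.45, adjusted p = 0.0878). Cd14, Clec7a, Marco and Msr1 were not called either, at -0.33, -0.27, -0.03 and 0.19. Leaving out 1 array at a time left 12 to 17 members called, the lowest count without oil 28 h replicate 2. Besides Csf1 and Stab1, single arrays decided Fcgr2b (adjusted p = 0.0624 without oil 28 h replicate 1), Tyrobp (0.133 without replicate 2) and Cd68 (0.0706 without replicate 2).

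**Figure D2:**
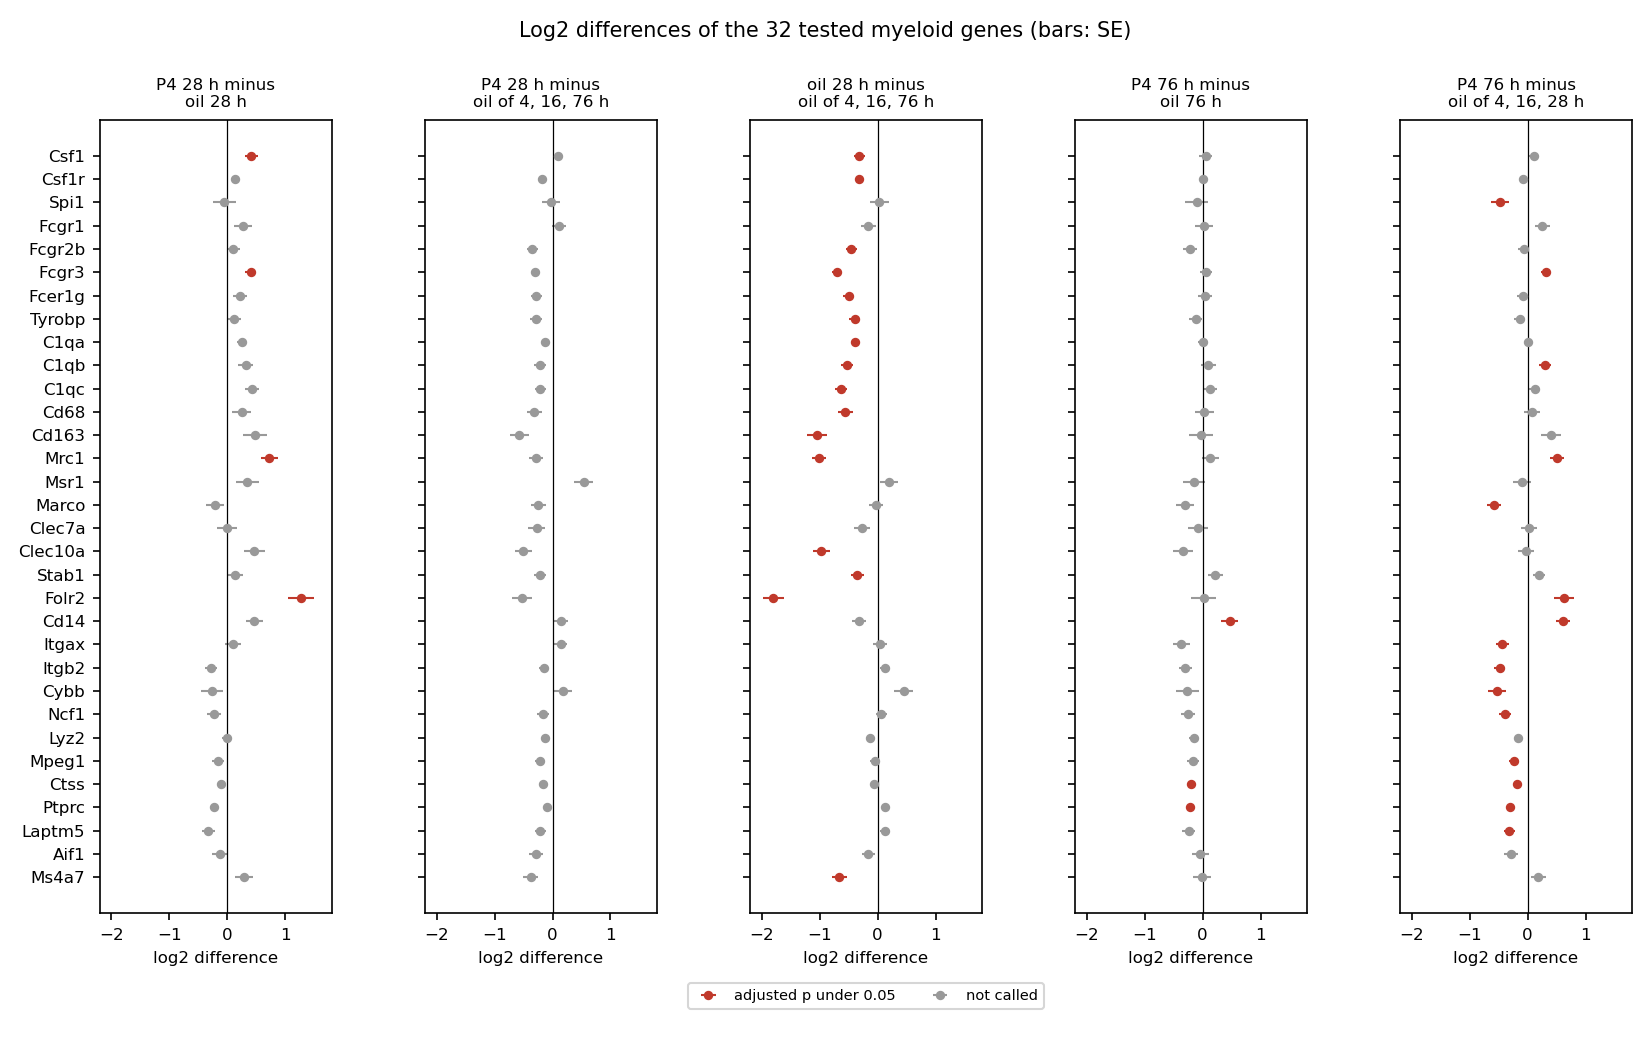
Log2 differences of the 32 tested members, one row each in order of role, with SE as bars; red points passed an adjusted p of 0.05. The 3 panels at left give P4 at 28 h against own oil, P4 at 28 h against oil of the other times, and oil at 28 h against oil of the other times, with 4, 0 and 16 red points; the 2 at right give P4 at 76 h against own oil and against oil of the other times, with 3 and 15.

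Averaged over a role group, the arrays showed how far the third oil array of 28 h lay from its partners. The mean log2 deviation of the scavenger and lectin group from its mean over all arrays was -0.13, -0.23 and 0.03 on the P4 arrays of 28 h, against -0.75, -0.57 and -0.17 on the oil arrays. For the C1q group it was 0.06, -0.10 and -0.16 with P4, against -0.46, -0.41 and -0.32 with oil. The oil values of C1q lie together, whereas the third oil array stands apart from the first and second for the receptors.

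**Figure D3:**
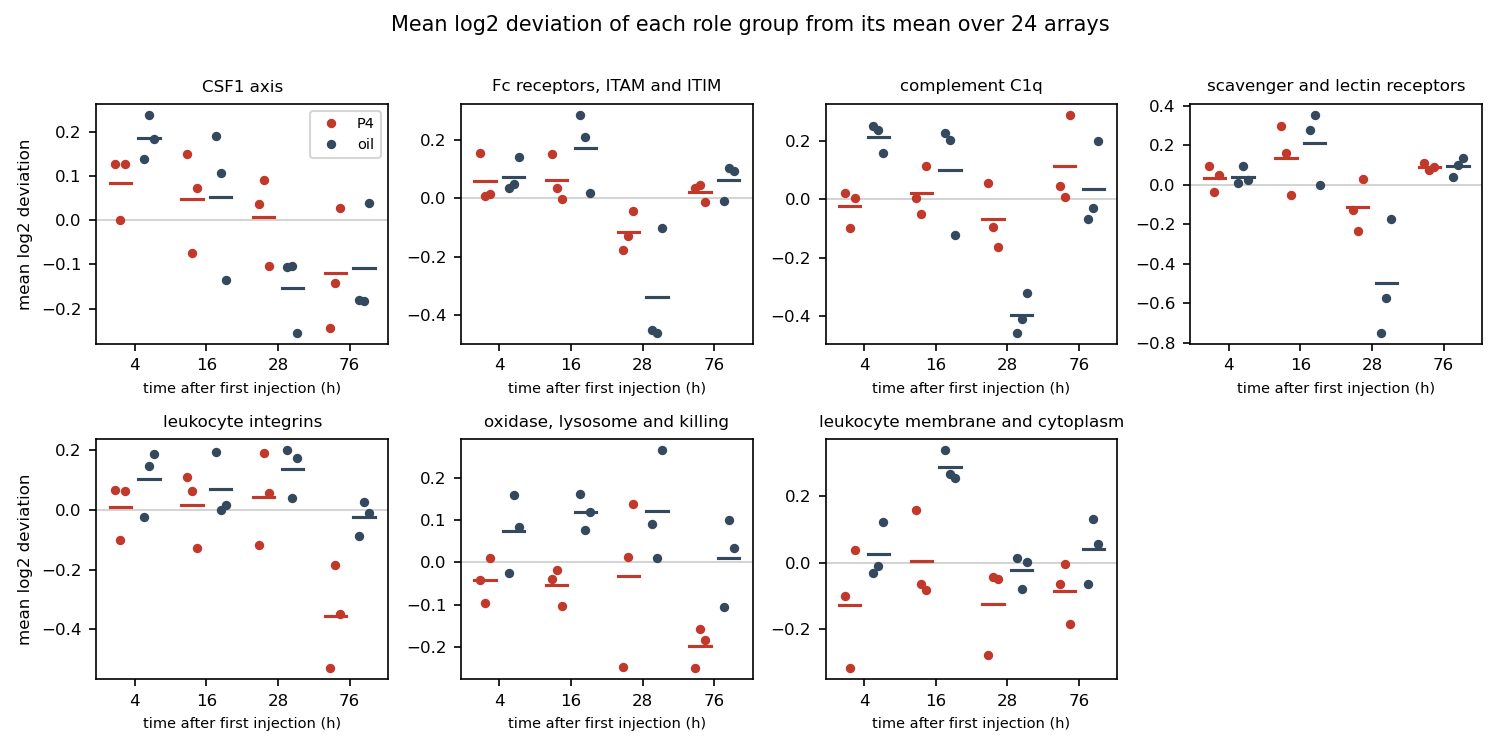
Mean log2 deviation of the tested members of each role group from their mean over 24 arrays, with P4 arrays left of oil arrays; points are arrays and bars the mean of 3. The scavenger and lectin group reaches -0.75 on an oil array of 28 h, the C1q group -0.46, while the leukocyte integrins are lowest on P4 arrays of 76 h.

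Whether the P4 difference itself varied over the 4 times was asked with a moderated F-test, in which 4 members passed, against 10% of all genes. They were Folr2 (adjusted p = 0.00512), C1qc (0.0245), Mrc1 (0.0455) and Fcgr3 (0.0462). Over the oil groups alone, 14 members varied with time, against 12.2% of all genes, led by Folr2 (adjusted p = 7.80e-06), Fcgr3 (1.66e-05) and Mrc1 (6.12e-05). With 28 h left out, 1 member varied among the oil groups (Csf1r, adjusted p = 0.0416) against 3.64% of genes, and none passed for the P4 difference, against 10.5% of genes. This last pair of tests was chosen after seeing the data.

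Markers of other cells moved in the same oil arrays of 28 h. Of 9 tested stromal fibroblast markers, 8 were lower there than in oil of the other times, with a median of -0.52, and 5 were higher with P4 than with own oil. The summed intensity of the list was 56720 to 66355 on the P4 arrays of 28 h, 45687 to 52269 on the oil arrays of 28 h and 61718 to 72330 on the oil arrays of the other times. Mast cell markers were lower in 4 of 6 tested, at a median of -0.88, and 4 were higher with P4 than with own oil. Their sum was 1829 to 2386 on the P4 arrays of 28 h, 1304 to 1623 on the oil arrays of 28 h and 2125 to 2839 on the other oil arrays. Ms4a2, Hdc and Mcpt2 of that list never passed the array median. B and plasma cell markers were higher in 4 of 11, and 2 were lower with P4 than with own oil. Their sum was 11637 to 17203 on the P4 arrays of 28 h, 20750 to 21844 on the oil arrays of 28 h and 11198 to 16323 on the other oil arrays. Of the T cell list 1 of 12 was higher, with sums of 6636 to 8767 with P4 and 8413 to 10567 with oil. Of the skeletal muscle list 3 of 10 were lower, with sums of 13635 to 32566 with P4 and 10899 to 16671 with oil. The part of these lists in the myeloid differences was not tested.

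The 4 other lists of myeloid function placed the members in context, namely identity genes, lysosome and phagocytosis, signalling, and Toll-like receptors with cytokines. Of 34 tested macrophage and monocyte identity genes outside the members, 8 were higher with P4 than with own oil at 28 h and none was lower. Among them were Cd209d (0.93 ± 0.17), a C-type lectin, Ccl6 (0.86 ± 0.17), a chemokine, Mgl2 (0.83 ± 0.19), a galactose lectin, and Retnla (0.82 ± 0.15), a secreted product of alternatively activated macrophages. The same list had 16 lower and 1 higher in oil of 28 h against oil of the other times, led by Cd209d (-1.42), Ccl6 (-1.25), Cd209a (-1.24) and Retnla (-1.10), and none called in P4 of 28 h against those oil arrays. The kinases and adaptors that signal below ITAM receptors and integrins had calls of the opposite sign. With P4 at 28 h, 2 of 20 were lower than own oil, namely Plcg2 (-0.56 ± 0.12), a phospholipase, and Syk (-0.48 ± 0.12), the kinase that ITAM motifs recruit, and none was higher. In oil of 28 h against other oil, 3 of the 20 were higher, Plcg2 (0.47), Syk (0.46) and Was (0.45), and Pirb, an inhibitory receptor, was lower (-0.45). Plcg2 and Syk are also made by B cells, whose markers are given above. Lysosome and phagocytosis genes had 4 of 20 lower in oil of 28 h, with the proteases Ctsk (-0.81), Lgmn (-0.61) and Ctsl (-0.27) and the metal transporter Slc11a1 (-0.39), and none called for P4 against own oil. Toll-like receptors and cytokines had 2 of 14 lower in oil of 28 h, Tlr4 (-0.40) and Irak3 (-0.31), and none called for P4 against own oil. Of all genes, 1.94% were called higher and 0.591% lower with P4 than with own oil at 28 h. In oil of 28 h against other oil, 6.1% were called lower and 1.5% higher. In P4 of 28 h against other oil, 0.874% were called.

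At 76 h, when the gland as a whole had many changed genes, few members were called against own oil. With limma, 3 of 32 were called, against 17.8% of all genes. Of these 1 was higher, against 11.1% of all genes, and 2 were lower, against 6.7%. The median of the members was -0.06, against 0.02 for all genes. Cd14 had 1524, 1271 and 1132 units with P4 and 1053, 940 and 835 with oil, without overlap, a difference of 0.47 ± 0.15 (1.38-fold, adjusted p = 0.0314). Cd14 is also expressed by mammary epithelium, whose markers are given below. Ptprc had 4263, 5134 and 4502 units with P4, against 5192, 5630 and 5292 with oil, a difference of -0.22 ± 0.07 (adjusted p = 0.0342). Ctss, the cathepsin that processes antigen, had 3757, 4239 and 4020 units with P4, against 4346, 4655 and 4767 with oil, a difference of -0.20 ± 0.07 (adjusted p = 0.0485). These calls were fragile, since the Cd14 call was lost in 4 of 24 fits without 1 array, that of Ptprc in 5 and that of Ctss in 14, and no member was called when P4 76 h replicate 1 or either of oil 76 h replicates 2 and 3 was left out. With no filter on low values the count was also 0, and with the 6 arrays of 76 h alone it was 7. The Ptprc and Ctss calls were also lost with quantile normalization and without an intensity trend in the variance.

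None of the 4 members called at 28 h was called against own oil at 76 h. Folr2 had 562, 499 and 539 units with P4 and 466, 503 and 621 with oil, and the ranges overlapped. The differences were 0.02 for Folr2, 0.13 for Mrc1, 0.06 for Fcgr3 and 0.05 for Csf1. Csf1r stood at 0.01, Cd163 at -0.02 and C1qc at 0.13. Clec10a stood at -0.34 ± 0.18 with arrays that did not overlap, without a call (adjusted p = 0.206). On the lower side, without a call, stood Itgax (-0.37), an integrin chain of dendritic cells and some macrophages, Itgb2 (-0.30), Ncf1 (-0.26), Cybb (-0.26) and Laptm5 (-0.24). Arrays did not overlap for 2 higher and 8 lower members, against 25.8% and 18.9% of all genes.

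**Figure D4:**
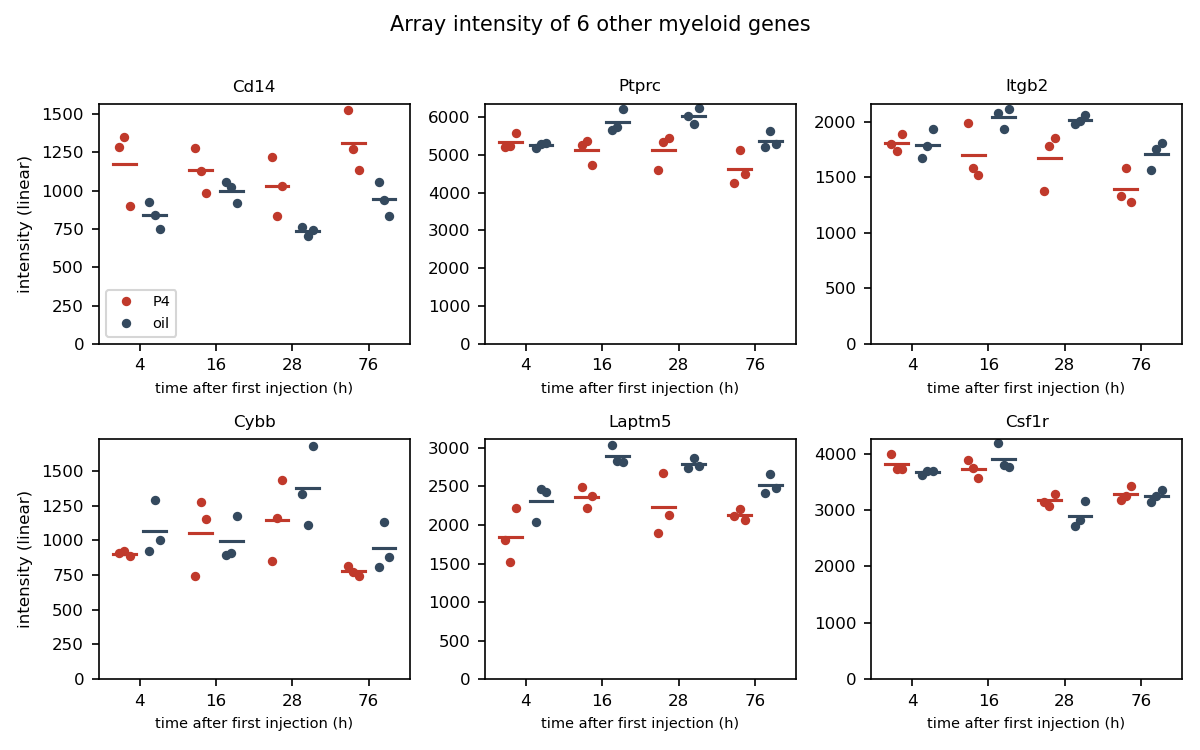
Array intensity, linear, of Cd14, Ptprc, Itgb2, Cybb, Laptm5 and Csf1r by hours after the first injection, with P4 arrays left of oil arrays; points are the 3 arrays of a group and bars their mean. At 76 h the P4 arrays of Cd14 lie at 1132 to 1524, above the oil arrays at 835 to 1053, and those of Ptprc at 4263 to 5134, below the oil arrays at 5192 to 5630.

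Against oil of 4, 16 and 28 h, P4 glands of 76 h had 15 members called, against 32.6% of all genes. Of these 5 were higher, against 16.9% of all genes, and 10 were lower, against 15.7%. The higher ones were Folr2 (0.63), Cd14 (0.61), Mrc1 (0.50), Fcgr3 (0.31) and C1qb (0.30). With the 28 h oil arrays left out of the comparison, Folr2 stood at 0.03 (adjusted p = 0.926), Mrc1 at 0.17 (0.344), Fcgr3 at 0.08 (0.524) and C1qb at 0.12 (0.451), and Cd14 remained called. The lower ones were Marco (-0.58), Cybb (-0.53), Itgb2 (-0.48), Spi1 (-0.48), Itgax (-0.43), Ncf1 (-0.39), Laptm5 (-0.31), Ptprc (-0.31), Mpeg1 (-0.24) and Ctss (-0.18). Against own oil at 76 h, Spi1 stood at -0.10 (limma, adjusted p = 0.784) and Marco at -0.30 (0.191). In oil of 76 h against oil of the other times, Spi1 stood at -0.38 and Marco at -0.28, without a call. Among the 10 lower members, Cybb lost its call without the 28 h oil arrays (adjusted p = 0.0805). The mean of the probe sets lost the calls of Laptm5 (adjusted p = 0.0912) and Ncf1 (0.0542), and quantile normalization that of Ctss (0.160). Without 1 array at a time 9 to 17 members were called, the fewest without P4 76 h replicate 1. The C1qb call was lost in 6 of these 24 fits and that of Mpeg1 in 5. Itgb2 had 1330, 1584 and 1277 units on the P4 arrays of 76 h, against 1669 to 2117 (median 1983) on the 9 oil arrays of the other times, below all of them, and the difference was -0.48 ± 0.09 (limma, adjusted p = 0.000183). Arrays did not overlap for 4 lower members, Itgb2, Cybb, Ncf1 and Ptprc, against 8.96% of genes, and for Cd14 alone on the higher side, against 12.4%. Oil at 76 h against oil of the other times had no member called by limma, against 2.99% of genes, and 9 had an unadjusted p under 0.05, against 19.2% of genes.

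Markers of other cell types moved widely at 76 h. Of the luminal epithelial list 9 of 10 were higher with P4 than with own oil, and the summed intensity was 16375 to 18537 with P4, against 5582 to 6954 with oil. Basal epithelial markers were higher in 8 of 10 and stromal fibroblast markers in 6 of 9. T cell markers were lower in 6 of 12, with sums of 5549 to 6231 with P4 and 7828 to 8484 with oil, and B and plasma cell markers in 5 of 11, with sums of 8317 to 10695 with P4 and 11198 to 14194 with oil. Endothelial markers were lower in 5 of 10. Neutrophils also express Itgb2, Cybb and Ncf1, and the neutrophil list had sums of 1764 to 2448 with P4 and 3202 to 11342 with oil, with 1 of 8 called lower. Their part in the Cd14, Ptprc and Ctss differences was not tested.

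**Figure D5:**
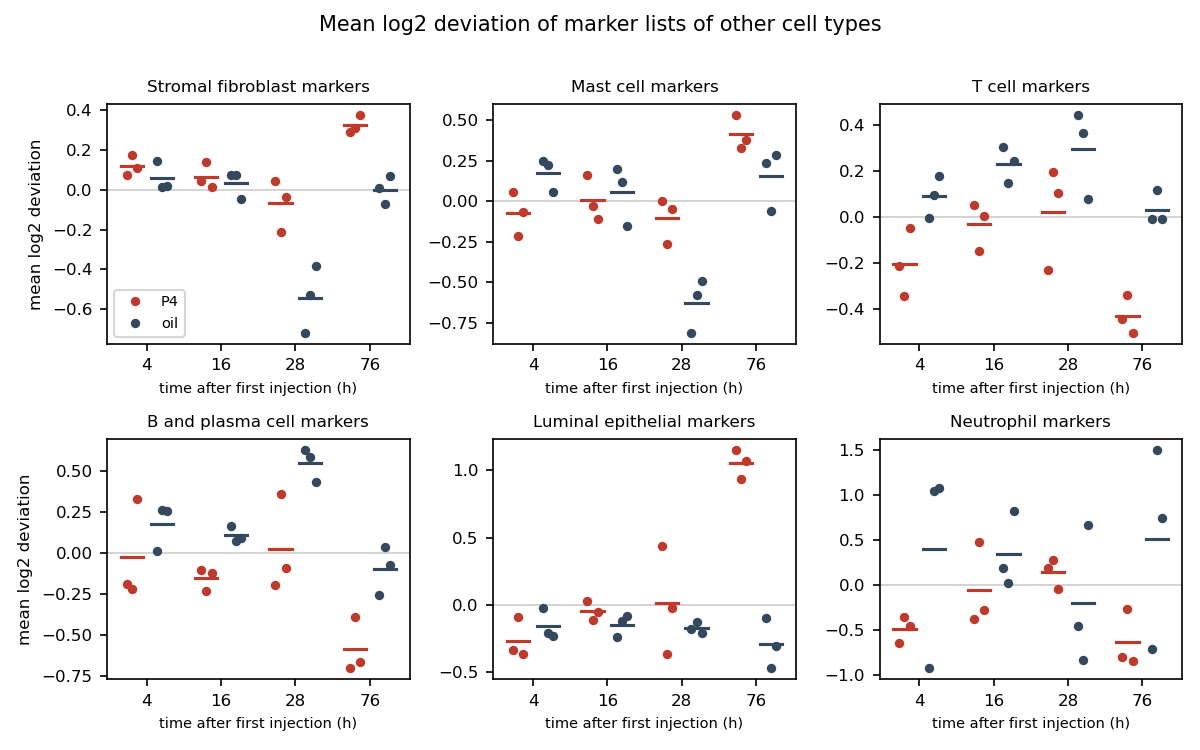
Mean log2 deviation of 6 marker lists of other cell types from their mean over 24 arrays, with P4 arrays left of oil arrays; points are arrays and bars the mean of 3. The stromal and mast cell lists are lowest on the oil arrays of 28 h, and at 76 h the luminal list is higher and the T and B cell lists lower on the P4 arrays than on the oil arrays.

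Of the other myeloid lists at 76 h, 3 of 20 signalling genes were lower than own oil, namely the guanine exchange factor Dock2 (-0.41), the surface antigen Cd52 (-0.37) and the phosphatase Inpp5d (-0.32). Against oil of the other times 16 of the 20 were lower, led by the actin regulators Was (-0.89) and Hcls1 (-0.85), Syk (-0.78) and the phosphatase Ptpn6 (-0.62), and none was higher. In the lysosome and phagocytosis list 4 of 20 were lower than own oil, namely the GTPase Rac2 (-0.43), the cathepsin Ctsd (-0.35), Slc11a1 (-0.29) and Ctsl (-0.26). Macrophage identity genes had 2 of 34 higher, the chemokine Pf4 (0.33) and the transcription factor Maf (0.21). Tlr2, a receptor for bacterial lipoproteins, was the 1 of 14 Toll-like receptor and cytokine genes called, higher at 0.58 ± 0.17. Of all genes, 11.1% were called higher and 6.7% lower than own oil at 76 h. Against oil of the other times, 15.7% of all genes were called lower.

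At 4 and 16 h no member was called against own oil by limma. At 4 h 0.186% of all genes were called, and 9 members had an unadjusted p under 0.05, against 12.6% of all genes. The median was -0.09 for the members and -0.01 for all genes. At 16 h 0.308% of genes were called, and 9 members had an unadjusted p under 0.05, against 17.7% of all genes, with medians of -0.13 for the members and -0.07 for all genes. At 4 h the lowest adjusted p was that of Cd14, 0.180, at 0.47. Its intensities were 1283, 1350 and 897 with P4 and 929, 840 and 753 with oil, which overlap. At 16 h Aif1 had the lowest, 0.106, at -0.56 ± 0.14. It had 377, 260 and 308 units with P4 and 423 to 480 with oil, without overlap. Lower members without overlap numbered 6 at each time, against 12.8% of genes at 4 h and 11.7% at 16 h. Ncf1 was among them at both times (-0.36 at each), C1qa, C1qc, Marco, Spi1 and Clec10a at 4 h, and Fcgr3, Ctss, Ptprc, Laptm5 and Aif1 at 16 h. On the higher side stood Clec7a (0.42) and Csf1r (0.06) at 4 h, against 6.12% of genes, and no member at 16 h, against 5.37%. Without P4 16 h replicate 1, 7 members were called at 16 h, among 1843 of the 12352 genes, and without P4 4 h replicate 3, 2 were called at 4 h, among 477 genes.

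Against oil of the other times, P4 at 4 h had 3 members called, against 6.51% of all genes. Csf1r (0.20) and Fcer1g (0.35) were higher, against 3.05% of genes, and Laptm5 (-0.58) was lower, against 3.46%. P4 at 16 h had 4 called, against 4.53% of genes. Csf1r (0.20), Fcgr3 (0.27) and Cd14 (0.43) were higher, against 2.29%, and Ncf1 (-0.34) was lower, against 2.23%. Without the 28 h oil arrays none of the 4 at 16 h was called, and at 4 h the calls of Csf1r and Fcer1g were lost too. The mean of the probe sets gave no call for Laptm5 at 4 h (adjusted p = 0.293), Csf1r at 4 and 16 h or Ncf1 at 16 h. Among oil glands, 4 h had 3 members called against the other times, all higher, C1qc (0.47), Fcer1g (0.38) and C1qa (0.27), against 2.86% of genes called and 2.23% called higher. At 16 h 2 were called, both higher, Fcgr3 (0.43) and Csf1r (0.26), against 0.996% of genes called and 0.745% called higher. None of these 5 was called once the 28 h oil arrays were left out of the comparison.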

How the data were processed

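Per the labels' protocols, Trizol-extracted total RNA was biotin-labelled for the Affymetrix Mouse Genome 430 2.0 array. The deposited values are linear intensity values for 45101 probe sets on 24 arrays. How the authors summarized the probes and scaled the arrays is not stated in any source used here. Array log2 medians spanned 0.16, and no further normalization was applied. Replicate arrays are biological replicates by their labels, and p-values measure the spread between such pools of 5 mice.

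Values under the 10th percentile (7.38) were raised to it and log2 was taken from the deposited intensities. Names came from the platform annotation, with 34945 probe sets of 1 symbol, 932 of several and 9160 of none, and 64 control probe sets were left out. A probe set had to lie above its array's median on at least 3 arrays, which left 12352 genes. All arrays entered 1 model with limma 3.58.1 in R 4.3.3, with a mean per group, an intensity trend and 16 residual degrees of freedom. Contrasts set P4 against own oil, P4 against the mean of the other 3 oil groups, and each oil group against the others. Tests are two-sided, and a gene was called at a Benjamini-Hochberg adjusted p under 0.05 over all genes. Array counts, 3 per group, limit the precision. Data were simulated for the 28 h comparison with 12352 genes, 200 of them changed, and independent normal noise for each gene. In that setting 38.0% of genes changed by 0.5 and 95.0% of those changed by 1 (log2) were called. Differences shared by many genes of an array were not simulated.

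The members and the lists were chosen with earlier results of these data known. Members called against own oil, the smallest p of each role in the F-tests, Csf1 and Csf1r were to be given array by array. Ms4a7 and Itgax fall under this rule but were not given so, and Cd163, Clec10a and Aif1 were given outside it. Of other lists, up to 4 called genes per comparison were named. Msr1 was singled out after its values were seen. Alternatives changed the filter, normalization, pseudocount, probe set rule, variance trend, arrays in the fit, threshold and oil arrays, or left out each array in turn. The labels do not say that same-numbered arrays were paired, and the main fit did not pair them. The correlation of same-numbered arrays within a time, after removing group means, ran between -0.02 and 0.35, with 6 of 12 pairs over 0.1. Whether same-numbered arrays shared a batch was not tested.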

Additional observations from a re-analysis of the deposited data

Results flagged for a closer look

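For 4 members the difference between P4 and own oil differed between 4, 16, 28 and 76 h in the moderated F-test of limma. The test called 10% of all genes, and 4 of 32 members is near that share. Without 1 array at a time the count of members ran from 1 to 6. Folr2 had an adjusted p of 0.00512, with a log2 difference of 1.27 at 28 h and of 0.02 at 76 h. C1qc had 0.0245, with -0.32 at 4 h and 0.42 at 28 h. Mrc1 had 0.0455, with 0.72 at 28 h and 0.13 at 76 h. Fcgr3 had 0.0462, with -0.16 at 16 h and 0.40 at 28 h. All 4 genes were lower in oil glands of 28 h than in oil of the other times, a comparison that shares the 28 h oil arrays with the F-test. None passed once 28 h was left out, an alternative chosen after seeing the data that removes the time of their largest differences.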

How the results depend on the processing

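Counts of members called moved by over 1.5 times as follows, and no count or called difference turned its direction. With no filter, P4 against own oil at 76 h had 0, P4 at 16 h against other oil 1, oil at 4 h 1 and the F-test of P4 effects 1. Quantile normalization gave 2 in that F-test. A pseudocount of 16 gave 4 for oil at 16 h. Averaging all probe sets per gene gave 5 for P4 at 4 h against other oil and 2 for P4 at 16 h. Without a variance trend, P4 against own oil at 76 h had 1, P4 at 16 h against other oil 0, oil at 4 h 1, oil at 16 h 1 and the F-test of P4 effects 2. Fits to the 6 arrays of a time gave 1 at 28 h and 7 at 76 h. Leaving the 28 h oil arrays out of the other oil gave 0 for P4 at 16 h, oil at 4 h and oil at 16 h. A threshold of 0.1 gave 5 for P4 against own oil at 76 h, 6, 7 and 3 for P4 at 4, 16 and 28 h against other oil, and 9 and 3 for oil at 16 and 76 h. Without 28 h, an alternative chosen after seeing the data, the F-tests gave 1 for oil and 0 for P4 effects. The median of the members moved by more than the replicate spread in 4 fits. It was 0.22 for P4 against own oil at 28 h without oil 28 h replicate 3 and, with the 28 h oil arrays out of the other oil, -0.04 for P4 at 16 h, -0.21 for P4 at 76 h and -0.05 for oil at 4 h, against 0.05, -0.07 and 0.07 with them. The cause of these shifts was not tested.

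With the replicate number as a block, P4 against own oil had 1, 1, 7 and 5 members called at 4, 16, 28 and 76 h, and the F-test of P4 effects had 6. The labels give same-numbered arrays no link beyond the number, and whether they shared a batch was not tested.

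Without 1 array at a time, P4 against own oil had 0 to 2, 0 to 7, 1 to 5 and 0 to 4 members called at 4, 16, 28 and 76 h, and P4 against other oil had 1 to 6, 0 to 9, 0 to 6 and 9 to 17. Oil against other oil had 0 to 3, 0 to 7, 12 to 17 and 0 to 5, the F-test of oil 9 to 17 and that of P4 effects 1 to 6. The 3 arrays per group and pools of 5 mice limit what differences of under 0.5 can show.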
